A study of Mus musculus with 28 samples.

Results

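Genes of the hypoxia response and of glycolysis were examined in mouse renal dendritic cells, which take up and present antigens and were sorted from the outer kidney (cortex) and the inner kidney (medulla). The set was fixed by gene name, with earlier results of these data known, and holds 33 members. They run from the oxygen-regulated transcription factors through the enzymes that break down glucose to secreted and stress-response products. The array listed 30 of the 33 among its 19272 genes. Gpi1, Aldoa and Eno1 were not matched to a probeset with a single symbol and were not analysed here. Of the 30, 29 passed a filter on dim values and were among the 14346 genes tested; Egln3 did not pass it. A probeset is the group of array probes that reports 1 transcript, and for each gene the brightest was used.

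The series has 28 arrays in 8 groups. Homeostatic (healthy) kidneys of C57BL/6 mice and of BALB/c mice each gave cortex and medulla, with 4 arrays in each of these 4 groups. Kidney allografts taken 3 days after transplantation gave donor cells (CD45.2, labelled BALB/c) and host cells (CD45.1, labelled C57BL/6), again from cortex and medulla with 3 arrays in each group. Every sample was sorted on CD45, CD11c and MHC class II at the cell surface. The arrays came from 11 mice: 4 of each homeostatic strain and 3 grafts, each of which gave all 4 graft samples. Strain and origin cannot be told apart between donor and host cells. Homeostatic and graft cells differ in transplantation, and host cells also in having entered the organ.

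When oxygen is scarce, prolyl hydroxylases no longer mark the hypoxia-inducible factors HIF-1α and HIF-2α for destruction, and the factors bind short DNA elements and switch on their target genes. Many targets move metabolism towards glycolysis, the breakdown of glucose to pyruvate and lactate, and away from the mitochondria. The renal medulla is the poorest in oxygen of the kidney's regions, and activated dendritic cells are known to raise glycolysis.

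The promoters of the members were searched for the core letters of the hypoxia response element, ACGTG and GCGTG, on both strands, so that CACGT and CACGC also count; ACGTG and CACGT overlap where a promoter holds CACGTG. The RefSeq promoter table (GRCm38.p6) holds windows of 300 bases, 250 before and 50 after a gene's start, for 30 of the 33 members, among them Gpi1, Aldoa and Eno1, but not for Ndrg1, Bhlhe40 or Epas1. A match was found in at least 1 window of 28 of these 30 genes (93.3%), against 12628 of all 27025 genes of the table (46.7%). By window the shares were 35 of 44 (79.5%) and 14380 of 32851 (43.8%). The members were chosen as genes of the hypoxia response and of glycolysis, so their higher share is not an independent result. The median GC content was 64.8% in the members' windows and 52.7% in all windows, and its part in the difference was not tested. Tpi1 and Gpi1 had no match, which says only that these letters are not in this window.

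The 150 bases before the start are shown for 7 members that differed between groups in the results that follow, with each match in capitals, 5′ to 3′ on the gene's strand. Hk1 is shown at 2 alternative starts, since only the second holds a match in this stretch. The Hif1a stretch is chr12:73907717-73907866 (plus strand), that of Pgk1 chrX:106186950-106187099 (plus), that of Bnip3 chr7:138909507-138909656 (minus) and that of Higd1a chr9:121857797-121857946 (minus). The Pfkl stretch is chr10:78009808-78009957 (minus), that of Aldoc chr11:78322923-78323072 (plus), and those of Hk1 chr10:62379909-62380058 and chr10:62340422-62340571 (minus). The Bnip3 stretch holds 5 matches and that of Hif1a 3, overlapping ones counted separately, whereas those of Pfkl and Aldoc hold 1 each.
Hif1a: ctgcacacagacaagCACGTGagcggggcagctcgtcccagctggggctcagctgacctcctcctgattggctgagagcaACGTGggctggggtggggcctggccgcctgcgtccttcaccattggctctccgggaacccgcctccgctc
Pgk1: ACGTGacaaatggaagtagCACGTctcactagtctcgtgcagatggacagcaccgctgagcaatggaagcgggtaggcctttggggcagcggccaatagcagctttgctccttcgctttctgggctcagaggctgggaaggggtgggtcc
Bnip3: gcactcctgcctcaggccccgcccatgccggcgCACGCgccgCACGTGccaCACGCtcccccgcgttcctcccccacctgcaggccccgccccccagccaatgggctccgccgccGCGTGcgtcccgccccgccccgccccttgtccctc
Higd1a: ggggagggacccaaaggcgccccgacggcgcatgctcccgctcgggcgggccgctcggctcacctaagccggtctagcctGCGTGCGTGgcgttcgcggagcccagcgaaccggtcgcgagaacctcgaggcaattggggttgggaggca
Pfkl: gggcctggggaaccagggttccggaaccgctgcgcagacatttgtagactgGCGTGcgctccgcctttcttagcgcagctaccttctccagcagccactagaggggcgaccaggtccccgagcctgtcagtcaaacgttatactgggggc
Aldoc: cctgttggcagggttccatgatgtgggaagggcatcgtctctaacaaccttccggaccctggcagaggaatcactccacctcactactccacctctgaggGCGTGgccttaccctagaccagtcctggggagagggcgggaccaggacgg
Hk1 (first start): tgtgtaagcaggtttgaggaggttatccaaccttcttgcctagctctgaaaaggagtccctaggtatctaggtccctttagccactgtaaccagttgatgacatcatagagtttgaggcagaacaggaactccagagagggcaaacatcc
Hk1 (second start): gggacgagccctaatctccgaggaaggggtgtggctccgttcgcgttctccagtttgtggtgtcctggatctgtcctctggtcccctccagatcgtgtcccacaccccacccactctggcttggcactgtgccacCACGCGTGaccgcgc

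Levels are log2 array signal, and 1 log2 unit is a doubling. Differences are given ± SE from a linear model (limma) over all 28 arrays. A difference passed when its p-value, adjusted over all genes tested, was under 0.05. The labels give separate mice within each group. Samples of the 2 regions, and those of the 2 origins within a graft, share mice, so results of these comparisons are given also with the mouse as a block where that ended the call. A gene's level is not compared with that of another gene, since probes differ in brightness.

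The cell types behind the signal differed between the groups. The leukocyte list holds Ptprc and 11 further genes, not all of them expressed by every leukocyte. It averaged 11.79 and 11.90 in C57BL/6 cortex and medulla, 11.60 and 11.54 in those of BALB/c, 10.98 and 10.56 in donor, and 10.75 and 9.20 in host samples. The epithelium list, Cdh1 and 6 further genes, went the other way, with means of 8.41 and 8.29, 8.32 and 8.97, 9.45 and 10.18, and 9.68 and 10.70 in the same order. Proximal tubule genes, 8 of 10 on the array, such as Lrp2, averaged 9.03 in C57BL/6 cortex and 7.22 in its medulla, with 8.04 and 7.45, 11.02 and 7.21, and 10.97 and 7.20 for BALB/c, donor and host. Macrophage genes averaged between 10.58 and 11.51 in all groups but host cortex (7.64) and host medulla (7.90). Genes of T and natural killer cells, 5 of 6 on the array, averaged 8.87 in host cortex and between 6.85 and 7.76 in the other groups. Of the sort markers, Itgax (CD11c) was lower in the medulla than in the cortex by mean in all 4 kinds of cells: 11.32 and 11.09 in C57BL/6, 10.47 and 8.43 for BALB/c, 10.02 and 7.38 for donor, and 9.15 and 7.66 for host samples, so that it was low in healthy BALB/c medulla too. Ptprc (CD45) was at 11.23 ± 0.23 and the MHC class II gene H2-Aa at 11.24 ± 0.88 in donor medulla, and at 9.67 ± 1.09 and 10.92 ± 0.42 in host medulla (SD, n = 3 each). In healthy medulla Ptprc and H2-Aa were at 12.52 and 12.24 in BALB/c, and at 12.79 and 12.97 in C57BL/6. The 7 genes of dendritic cells and antigen presentation averaged 9.07 in donor and 8.60 in host medulla. In BALB/c and C57BL/6 medulla these 7 averaged 9.91 and 11.07. Zbtb46, a transcription factor of classical dendritic cells, was above the 40th percentile of its array on only 2 arrays, 1 of BALB/c cortex and 1 of host medulla. Arrays correlated with the rest of their group at 0.935 to 0.947 on average in C57BL/6 samples and at 0.887 to 0.9225 in graft samples. In BALB/c samples the correlations were lower, at 0.868 to 0.889 in cortex and 0.832 to 0.841 in medulla, except medulla replicate 1 at 0.766. In sorted bulk samples, fewer cells of a type and less RNA per cell cannot be told apart, and the part of epithelial RNA in the results that follow was not tested.

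**Figure D1:**
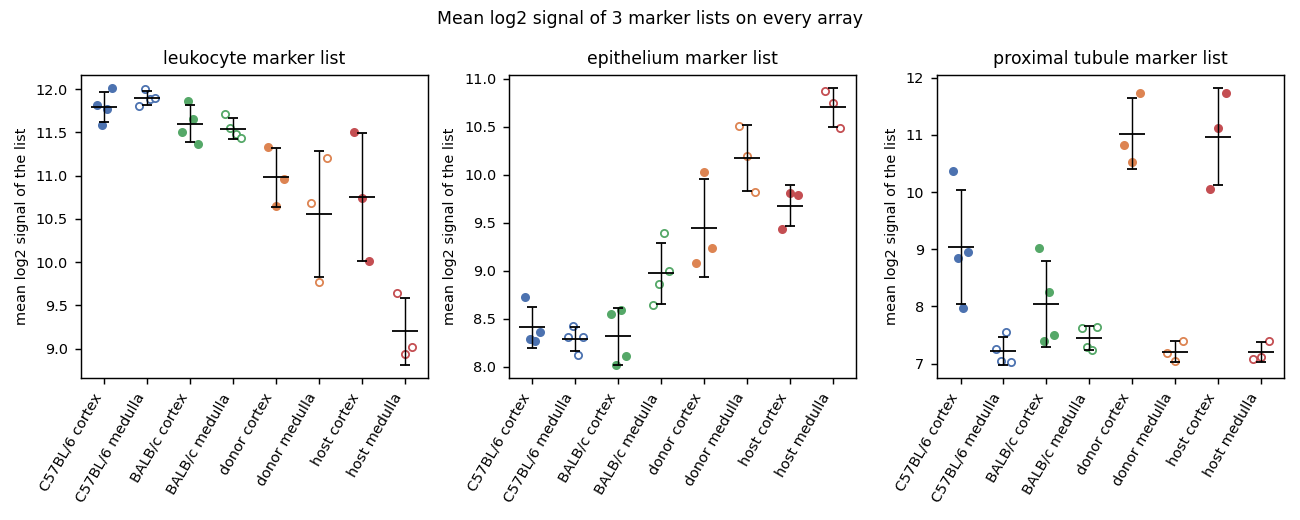
Mean log2 signal of the leukocyte, epithelium and proximal tubule marker lists on each of the 28 arrays, by group; each point is 1 array (filled cortex, open medulla), and the bars give mean ± SD. The leukocyte list averaged 11.90 in C57BL/6 medulla and 9.20 in host medulla, and the epithelium list 8.29 and 10.70.

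Across the 8 groups, most members had their highest mean in a graft group. How many of all genes did so was not counted, so these counts show nothing particular to the members. Of the 30 members on the array, 13 were highest in host medulla, 6 in donor cortex, 4 in host cortex and 3 in donor medulla. The other 4 were highest in a homeostatic group: Pfkfb3 and Hk2 in C57BL/6 medulla, Car9 in C57BL/6 cortex and Egln3 in BALB/c medulla. The widest span of group means was that of Higd1a, from 7.86 in BALB/c medulla to 11.59 in host medulla by the probeset used; the gene's other probeset spanned only 8.80 to 9.92. Ndrg1 spanned 3.56, Hk1 3.02, Hif1a 3.01 and Aldoc 2.97 log2 units, while P4ha2 spanned 0.41.

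**Figure D2:**
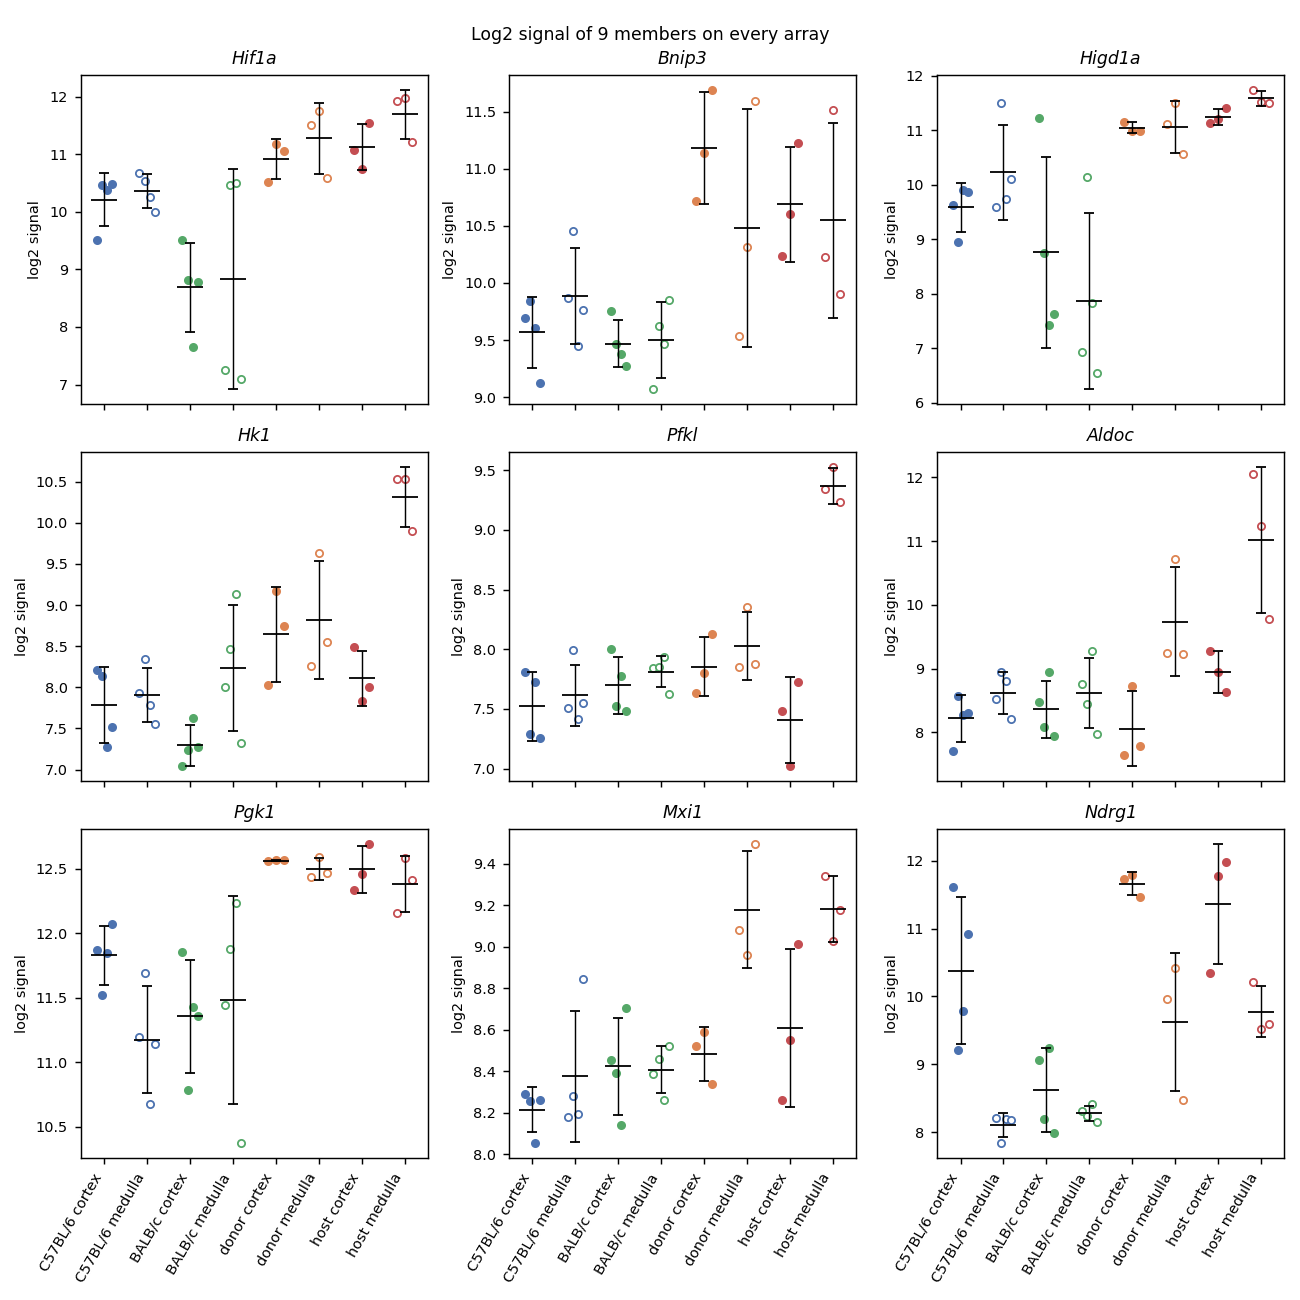
Log2 signal of 9 members on each of the 28 arrays, by group; points are arrays (filled cortex, open medulla) and bars mean ± SD of 4 homeostatic or 3 graft arrays. Pfkl stands at 9.23 to 9.53 in host medulla and at or below 8.35 in all other arrays, and the Ndrg1 medulla arrays lie below the cortex arrays of the same cells in C57BL/6, donor and host samples.

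The first question was whether these genes differ between medulla and cortex. In healthy kidneys 1 member passed, Ndrg1, in C57BL/6 cells. It was 1 of 29 members tested there and lower in the medulla; 0.153% of all genes tested passed. The median difference of the members was 0.15 and that of all genes 0.02. In BALB/c cells 0 of 29 passed by limma, where 0.0697% of all genes did; 2 members, Slc2a1 and Hk1, had an unadjusted p under 0.05. The share of all genes at that unadjusted threshold was not counted, so this count is not read as a result. The medians were 0.12 and 0.03.

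Ndrg1, a growth and stress regulator that hypoxia induces in many cells, had values of 11.61, 9.21, 9.78 and 10.92 in C57BL/6 cortex and of 8.21, 7.83, 8.19 and 8.17 in C57BL/6 medulla. The groups did not overlap, and the cortex arrays spread over more than 2 log2 units where the medulla arrays lay close together. Ndrg1 fell by 2.28 ± 0.45 (adjusted p = 0.0292), a 4.86-fold difference. In donor cells it stood at 11.74, 11.79 and 11.47 in cortex and at 9.96, 10.42 and 8.48 in medulla, and fell by 2.05 ± 0.52 (adjusted p = 0.0323). In host cells the cortex values were 10.35, 11.77 and 11.98 and the medulla values 10.21, 9.53 and 9.59, and the difference of -1.59 ± 0.52 did not pass. In BALB/c cells, with cortex values of 9.07, 8.19, 9.23 and 7.98, the difference was -0.34 ± 0.45. Ndrg1 was thus lower in the medulla of all 4 kinds of cells by mean and passed in C57BL/6 and donor cells. The regional difference of BALB/c minus that of C57BL/6 cells was 1.94 ± 0.64 and did not pass. The proximal tubule list fell from cortex to medulla in the same groups, from 9.03 to 7.22 in C57BL/6 and from 11.02 to 7.21 in donor cells. The loop of Henle and distal tubule list went from 10.30 to 8.42 and from 10.99 to 10.21. The collecting duct list went from 8.29 to 7.64 and from 8.84 to 9.38. The part of these lists in the Ndrg1 result was not tested. With the mouse as a fixed block, Ndrg1 had an adjusted p of 0.547 in C57BL/6 and 0.204 in donor cells. Over all alternatives the adjusted p ran from 0.00299 to 0.547 and from 0.0173 to 0.219. Leaving out cortex replicate 1 or 4 or medulla replicate 1, 2 or 4 ended the C57BL/6 call, and leaving out any donor cortex array or donor medulla replicate 1 or 3 ended the donor call. A second quantile normalization and fitting only the compared groups ended both.

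In the graft, 3 glycolytic enzymes rose from cortex to medulla in host cells. In donor cells 1 of 29 members passed between medulla and cortex, Ndrg1 (lower), where 2.54% of all genes tested did. With the mouse as a random block 3 donor members passed, 2 higher and 1 lower. The donor median was -0.06, against 0.11 for all genes, and turned to 0.09 after a second quantile normalization. In host cells 3 of 29 members passed, all higher in the medulla, where 4.29% of all genes did. The host medians were 0.17 and 0.10. The 3 members were Hk1, Pfkl and Aldoc, which encode enzymes of the first steps of glucose breakdown.

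Hk1, the hexokinase that traps glucose in the cell by phosphorylating it, stood at 8.49, 7.84 and 8.00 in host cortex and at 10.53, 10.53 and 9.89 in host medulla. The groups were well apart, and Hk1 rose by 2.21 ± 0.40 (adjusted p = 0.00122), 4.62-fold. Pfkl, the liver-type subunit of phosphofructokinase, which commits sugar to glycolysis, stood at 7.49, 7.02 and 7.73 in host cortex and at 9.34, 9.53 and 9.23 in host medulla. These medulla arrays lay close together and far above the cortex, and Pfkl rose by 1.96 ± 0.21 (adjusted p = 2.79e-06). Aldoc, the brain-type aldolase that splits the sugar into 3-carbon units, stood at 9.28, 8.95 and 8.63 in host cortex and at 12.05, 11.23 and 9.78 in host medulla. Its medulla arrays were widely spread but all above the cortex, and Aldoc rose by 2.07 ± 0.47 (adjusted p = 0.0102).

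In donor cells of the same grafts the differences between medulla and cortex were 0.17 ± 0.40 for Hk1, 0.17 ± 0.21 for Pfkl and 1.68 ± 0.47 for Aldoc, and none passed. With the mouse as a fixed block, a fit with few degrees of freedom left, the adjusted p in host cells was 0.0997 for Hk1, 0.151 for Pfkl and 0.209 for Aldoc. Over all alternatives it ran from 0.000289 to 0.0997, from 9.63e-07 to 0.151 and from 0.000518 to 0.263, and Aldoc also lost the call without host medulla replicate 1 and with only the compared groups fitted. From host cortex to host medulla the leukocyte list fell from 10.75 to 9.20 and the epithelium list rose from 9.68 to 10.70; the part of either in these differences was not tested.

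The remaining 25 members tested did not pass between regions in any of the 4 kinds of cells. Slc2a1, the glucose transporter GLUT1, was higher by mean in the medulla of all 4, by 0.60 ± 0.45 (C57BL/6), 1.15 ± 0.45 (BALB/c), 1.18 ± 0.52 (donor) and 1.42 ± 0.52 (host), with no difference passing. Vegfa, the vascular growth factor, differed by -0.07 ± 0.27, 0.17 ± 0.27, 0.08 ± 0.31 and 0.34 ± 0.31 in the same order. Hif1a itself differed by 0.15 ± 0.59, 0.14 ± 0.59, 0.36 ± 0.68 and 0.58 ± 0.68.

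**Figure D3:**
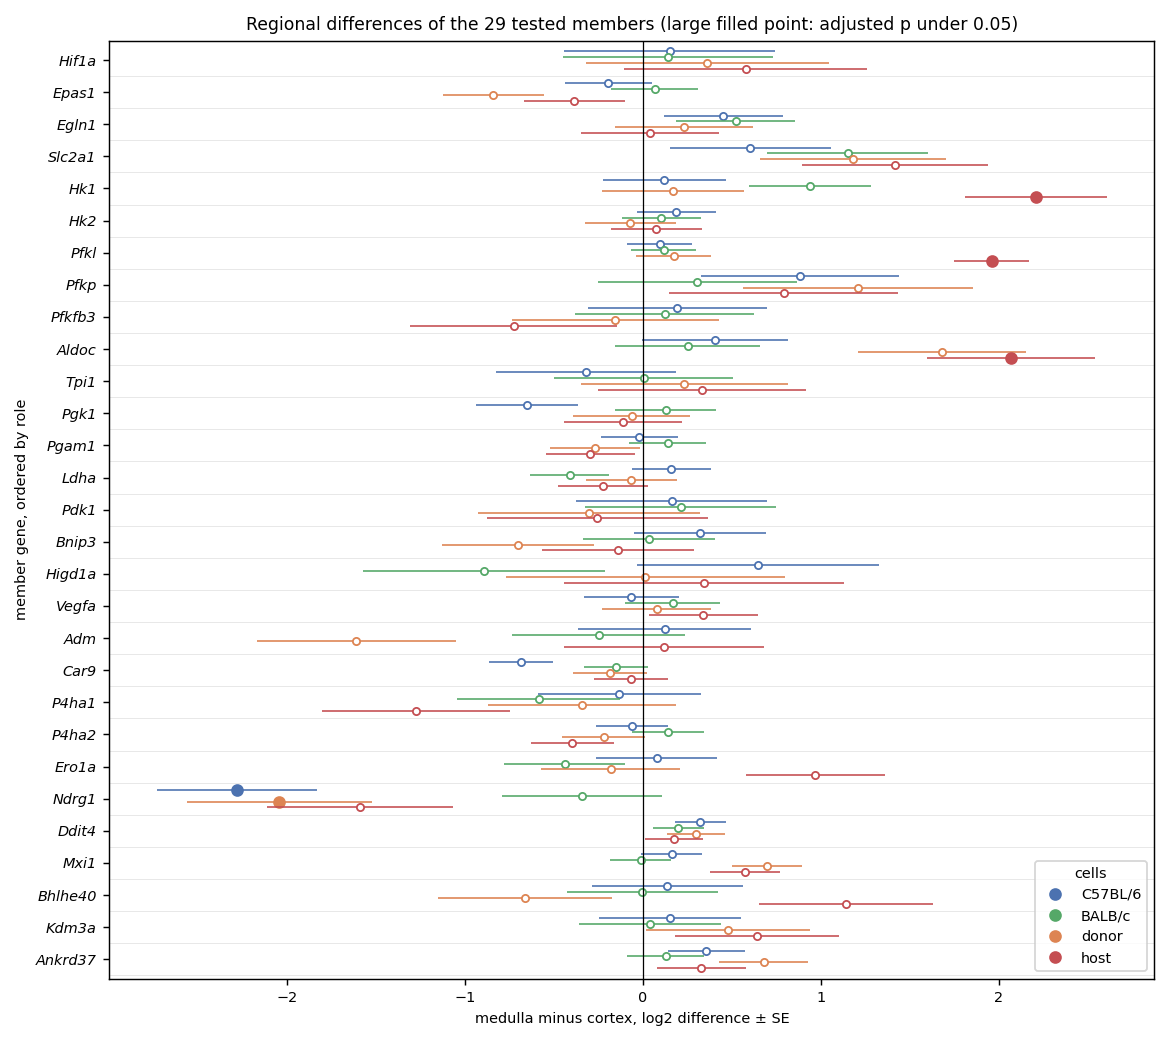
Medulla minus cortex log2 difference ± SE of the 29 tested members in C57BL/6, BALB/c, donor and host cells, ordered by role; large filled points passed at an adjusted p under 0.05. The passing points are Ndrg1 in C57BL/6 (-2.28) and donor cells (-2.05) and Hk1 (2.21), Pfkl (1.96) and Aldoc (2.07) in host cells.

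The regional differences were then tested against each other. The host minus C57BL/6 contrast called 1 of 29 members, where 0.899% of all genes passed: the regional difference of Pfkl was larger by 1.86 ± 0.28 in host cells (adjusted p = 0.000684). With the mouse as a fixed block its adjusted p was 0.0991, and over all alternatives it ran from 6.25e-05 to 0.0991; with the mouse as a random block 2 members passed, both higher. Hk1 differed by 2.09 ± 0.53 and Aldoc by 1.67 ± 0.62 in the same contrast and did not pass. The donor minus BALB/c contrast called 0 of 29 members by limma (0.453% of all genes), with 4 at an unadjusted p under 0.05. The BALB/c minus C57BL/6 contrast called 0 by limma (0.0418% of all genes), with 2 at an unadjusted p under 0.05. For neither contrast was the share of all genes at the unadjusted threshold counted. The members' medians in the 3 contrasts were -0.01, -0.03 and -0.07, against 0.08, 0.07 and 0.02 for all genes.

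The next question was how cells of the graft differ from cells of healthy kidneys of the strain they are labelled with. The members were higher in the graft more often than lower, in both regions and for both origins. In cortex, 7 of 29 members rose in donor cells against homeostatic BALB/c cells and 0 fell. This share of 24.1% is near the background of 24.0% of all genes tested, but the members' median difference was 0.63 where that of all genes was -0.13. In medulla 3 of 29 rose in donor cells and 0 fell, against a background of 3.18%, with medians of 0.46 and -0.11. Host cells were compared with homeostatic C57BL/6 cells. In medulla 9 of 29 members rose and 1 fell (34.5%), against a background of 11.5%, with medians of 0.54 and 0.07. In cortex 1 of 29 passed, and it fell, against a background of 4.14%, with medians of 0.55 and -0.01. The counts of members with a difference above 0 were 22, 23, 23 and 23 of 29 in the 4 comparisons. The share of all genes above 0 is not given beside them, and the backgrounds above count both directions together. After a second quantile normalization the medians were 0.47, 0.44, 0.52 and 0.44, in the order in which the comparisons are named here. The set was chosen with earlier results of these data known, so its shares and medians are not an independent test.

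Of the transcription factors, Hif1a, the oxygen-regulated subunit of HIF-1, rose in donor cells. It stood at 9.51, 8.82, 7.65 and 8.78 in BALB/c cortex and at 10.51, 11.18 and 11.05 in donor cortex, with no overlap. The rise was 2.23 ± 0.64 (adjusted p = 0.0158), 4.68-fold. In BALB/c medulla the arrays fell into a low pair, 7.25 and 7.09, and a high pair, 10.47 and 10.50, and donor medulla stood at 11.50, 11.74 and 10.58. Hif1a rose by 2.45 ± 0.64 there (adjusted p = 0.0386), but both low arrays carry the call, which was lost without replicate 1 or replicate 4 of BALB/c medulla, without donor medulla replicates 1 or 2, with only these groups fitted and with array weights. The cortex call was lost without donor replicate 2 or BALB/c replicate 3 and after a second quantile normalization (adjusted p = 0.0626, in a range of 0.00345 to 0.0701 over all alternatives). In host cells Hif1a stood at 11.08, 10.74 and 11.54 in cortex and at 11.92, 11.97 and 11.21 in medulla, above all C57BL/6 arrays, which lay between 9.52 and 10.67. The host differences of 0.91 ± 0.64 and 1.34 ± 0.64 did not pass. Epas1, the HIF-2 subunit, had group means of 7.47 to 8.50 and passed nowhere.

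Among the genes of glucose entry, Hk1 rose in donor cortex and in host medulla. In BALB/c cortex it stood at 7.04, 7.24, 7.63 and 7.27, and in donor cortex at 8.03, 9.17 and 8.74, clear of the controls. The rise was 1.35 ± 0.37 (adjusted p = 0.0129) and was lost without donor cortex replicate 2. In C57BL/6 medulla Hk1 stood at 7.94, 8.34, 7.79 and 7.55, all far below the 3 host medulla arrays. It rose there by 2.41 ± 0.37 (adjusted p = 9.5e-05), 5.32-fold. Hk2, the inducible hexokinase that is a HIF target, was dim, with group means of 6.98 to 7.64, and passed nowhere; its differences from homeostasis were -0.40 to -0.59. Slc2a1 differed by 0.97 ± 0.49 and 1.00 ± 0.49 in donor cortex and medulla and by 0.17 ± 0.49 and 0.98 ± 0.49 in host cells, and none passed.

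In upper glycolysis 3 members rose and 1 fell in host medulla, and none passed in the other comparisons with homeostasis. Pfkl stood at 7.51, 7.99, 7.41 and 7.55 in C57BL/6 medulla, and all 3 host arrays were above 9. It rose by 1.75 ± 0.20 (adjusted p = 1.78e-06). Aldoc stood at 8.52, 8.96, 8.81 and 8.20 in C57BL/6 medulla, again below every host medulla array, and rose by 2.40 ± 0.44 (adjusted p = 0.000601). Tpi1, triose-phosphate isomerase, stood at 10.37, 9.89, 9.93 and 10.14 in C57BL/6 medulla and at 11.64, 11.64 and 12.57 in host medulla. The groups were more than 1 log2 unit apart, and Tpi1 rose by 1.87 ± 0.55 (adjusted p = 0.0259), a call lost without C57BL/6 medulla replicates 2 or 3 or host medulla replicate 3. Pfkfb3, which makes the sugar phosphate that activates phosphofructokinase, went the other way. It stood at 11.39, 10.65, 9.25 and 10.37 in C57BL/6 medulla and at 8.78, 9.57 and 7.53 in host medulla, so the groups overlapped. Pfkfb3 fell by 1.79 ± 0.54 (adjusted p = 0.0332), a call lost with only these groups fitted (adjusted p = 0.127, in a range of 0.0118 to 0.237) and without C57BL/6 medulla replicates 1, 2 or 4 or host medulla replicates 1 or 3. Pfkp, the platelet-type phosphofructokinase subunit, differed by 0.88 ± 0.60 to 1.78 ± 0.60 in the 4 comparisons with homeostasis and did not pass.

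In lower glycolysis Pgk1, phosphoglycerate kinase and a classical HIF target, was high and even in the graft. It stood at 12.56, 12.56 and 12.57 in donor cortex, against 11.85, 10.78, 11.43 and 11.36 in BALB/c cortex. The donor arrays were nearly identical and above all controls, and Pgk1 rose by 1.21 ± 0.31 (adjusted p = 0.00821). In medulla it stood at 12.16, 12.59 and 12.41 in host cells and at 11.20, 11.69, 10.68 and 11.14 in C57BL/6 cells, again without overlap. It rose by 1.21 ± 0.31 (adjusted p = 0.0101), a call lost without host medulla replicate 2. Pgam1, phosphoglycerate mutase, stood at 9.81, 9.67 and 10.40 in donor cortex and at 9.20, 9.58, 9.43 and 8.78 in BALB/c cortex, close to each other but not overlapping. It rose by 0.71 ± 0.23 (adjusted p = 0.0318), but by 1.54 with another of its probesets, and a second quantile normalization left a difference of 0.16 (adjusted p = 0.678, in a range of 0.0215 to 0.678), and the call was lost without donor cortex replicates 1 or 3 or BALB/c cortex replicates 1 or 4 and with only these groups fitted. Ldha, lactate dehydrogenase A, which ends the pathway, had group means of 9.17 to 10.20; it differed by 0.80 ± 0.24 between donor and BALB/c medulla (adjusted p = 0.0654) and did not pass in any comparison.

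Of the 3 mitochondrial members, Bnip3 passed in donor cortex and Higd1a in donor cortex and medulla, all higher than in BALB/c cells. Bnip3 was higher by 0.98 in donor medulla and did not pass. Both were also higher by mean in host than in C57BL/6 cells, without passing. Bnip3 differed by 1.12 in cortex and 0.66 in medulla there, and Higd1a by 1.66 and 1.36. By their other probesets these host differences were 2.10 and 0.47 for Bnip3, and 0.72 and 1.10 for Higd1a. Bnip3, which marks mitochondria for removal, stood at 10.72, 11.14 and 11.70 in donor cortex and at 9.75, 9.46, 9.38 and 9.27 in BALB/c cortex. The groups were almost 1 log2 unit apart, and Bnip3 rose by 1.72 ± 0.40 (adjusted p = 0.00469), a call kept under every alternative run and with each array left out. Higd1a, a hypoxia-induced protein of the respiratory chain, stood at 11.16, 10.99 and 10.99 in donor cortex, while BALB/c cortex spread from 7.43 to 11.23. Its BALB/c replicate 1, at 11.23, lay above all donor arrays, so the groups overlapped. Higd1a rose by 2.29 ± 0.73 in cortex (adjusted p = 0.0282), or by 0.81 with its other probeset, a call lost without donor replicates 1 or 2 or BALB/c replicates 3 or 4, after a second quantile normalization and with only these groups fitted. In medulla it stood at 11.12, 11.50 and 10.55 in donor cells and at 6.92, 10.15, 7.83 and 6.55 in BALB/c cells, which did not overlap. The rise there was 3.19 ± 0.73 (adjusted p = 0.0225), 9.15-fold, but 0.56 by the gene's other probeset and 1.87 with the probesets averaged. The call was lost without donor medulla replicates 1 or 2 or BALB/c medulla replicates 1 or 4, with only these groups fitted and with array weights. Pdk1, the kinase that closes the gate from pyruvate to the mitochondria, was above the 40th percentile on 13 of 28 arrays and passed nowhere.

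Of the secreted and extracellular members, Vegfa rose in host medulla, where it stood at 9.16, 9.88 and 8.91, against 8.39, 8.48, 7.99 and 8.33 in C57BL/6 medulla. The groups did not overlap, and the rise was 1.02 ± 0.29 (adjusted p = 0.0204), 2.03-fold; the call was lost without C57BL/6 medulla replicate 3 or host medulla replicate 2. Car9, carbonic anhydrase IX, a surface enzyme that hypoxia induces strongly in tumours, was the member that fell in host cortex, at 7.02, 7.36 and 7.31 against 8.05, 7.60, 7.42 and 8.64 in C57BL/6 cortex. The nearest values, 7.36 and 7.42, almost touched. Car9 fell by 0.70 ± 0.19 (adjusted p = 0.0416), a call lost on leaving out C57BL/6 cortex replicate 1 or 4 or any host cortex array, after a second quantile normalization and with only these groups fitted; the gene was above the 40th percentile on 7 of 28 arrays. Adm, which encodes the vasodilator adrenomedullin, was near background in most arrays but reached 11.27 in donor cortex replicate 2, against 6.94 and 8.34 in the other donor cortex arrays, and passed nowhere.

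Of the stress and growth regulators, Ndrg1, Mxi1 and Bhlhe40 rose in the graft. Ndrg1 was higher in donor cortex than in BALB/c cortex by 3.05 ± 0.49 (adjusted p = 0.000328), 8.26-fold, and all donor arrays lay more than 2 log2 units above the highest control, 9.23. This call held under every alternative run and with each array left out; the proximal tubule list stood at 11.02 in donor cortex and 8.04 in BALB/c cortex, and its part was not tested. In host medulla Ndrg1 was higher than in C57BL/6 medulla by 1.68 ± 0.49 (adjusted p = 0.0247), a call lost after a second quantile normalization (adjusted p = 0.0652, in a range of 0.00287 to 0.11) and on leaving out any host medulla array or C57BL/6 medulla replicate 2. The proximal tubule list was at 7.20 and 7.22 in host and C57BL/6 medulla. The loop of Henle and distal tubule list was at 10.18 and 8.42 there. The collecting duct list was at 9.24 and 7.64, and the epithelium list at 10.70 and 8.29. The part of these lists in the Ndrg1 difference was not tested.

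Mxi1, a repressor that competes with MYC for its partner MAX, rose in the medulla of both origins. It stood at 9.34, 9.03 and 9.18 in host medulla and at 8.18, 8.28, 8.20 and 8.84 in C57BL/6 medulla, which did not overlap. The rise was 0.81 ± 0.18 (adjusted p = 0.00432), kept under every alternative run and with each array left out. In donor medulla it stood at 9.08, 8.96 and 9.50, above the BALB/c medulla values of 8.39, 8.46, 8.26 and 8.52. The rise of 0.77 ± 0.18 (adjusted p = 0.0276) was lost on leaving out any donor medulla array or BALB/c medulla replicate 1, with only these groups fitted and with array weights. Bhlhe40, a transcriptional repressor that also responds to cytokines, stood at 9.70, 10.32 and 9.31 in host medulla and at 7.91, 7.51, 7.56 and 8.08 in C57BL/6 medulla. These arrays were clearly apart, and Bhlhe40 rose by 2.01 ± 0.46 (adjusted p = 0.00421), kept under every alternative run and with each array left out.

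The marker lists also differed in all 4 comparisons with homeostatic cells. These include host cortex, where 0 members passed upwards, though 23 of 29 were above 0 with a median difference of 0.55. In host medulla, where 9 members rose, the epithelium list was at 10.70 against 8.29 in C57BL/6 medulla and the leukocyte list at 9.20 against 11.90. In donor cortex, where 7 rose, the epithelium list was at 9.45 against 8.32 and the leukocyte list at 10.98 against 11.60. In donor medulla, where 3 rose, they were at 10.18 against 8.97 and 10.56 against 11.54. In host cortex they were at 9.68 against 8.41 and 10.75 against 11.79. The part of these lists in the members' differences was not tested.

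**Figure D4:**
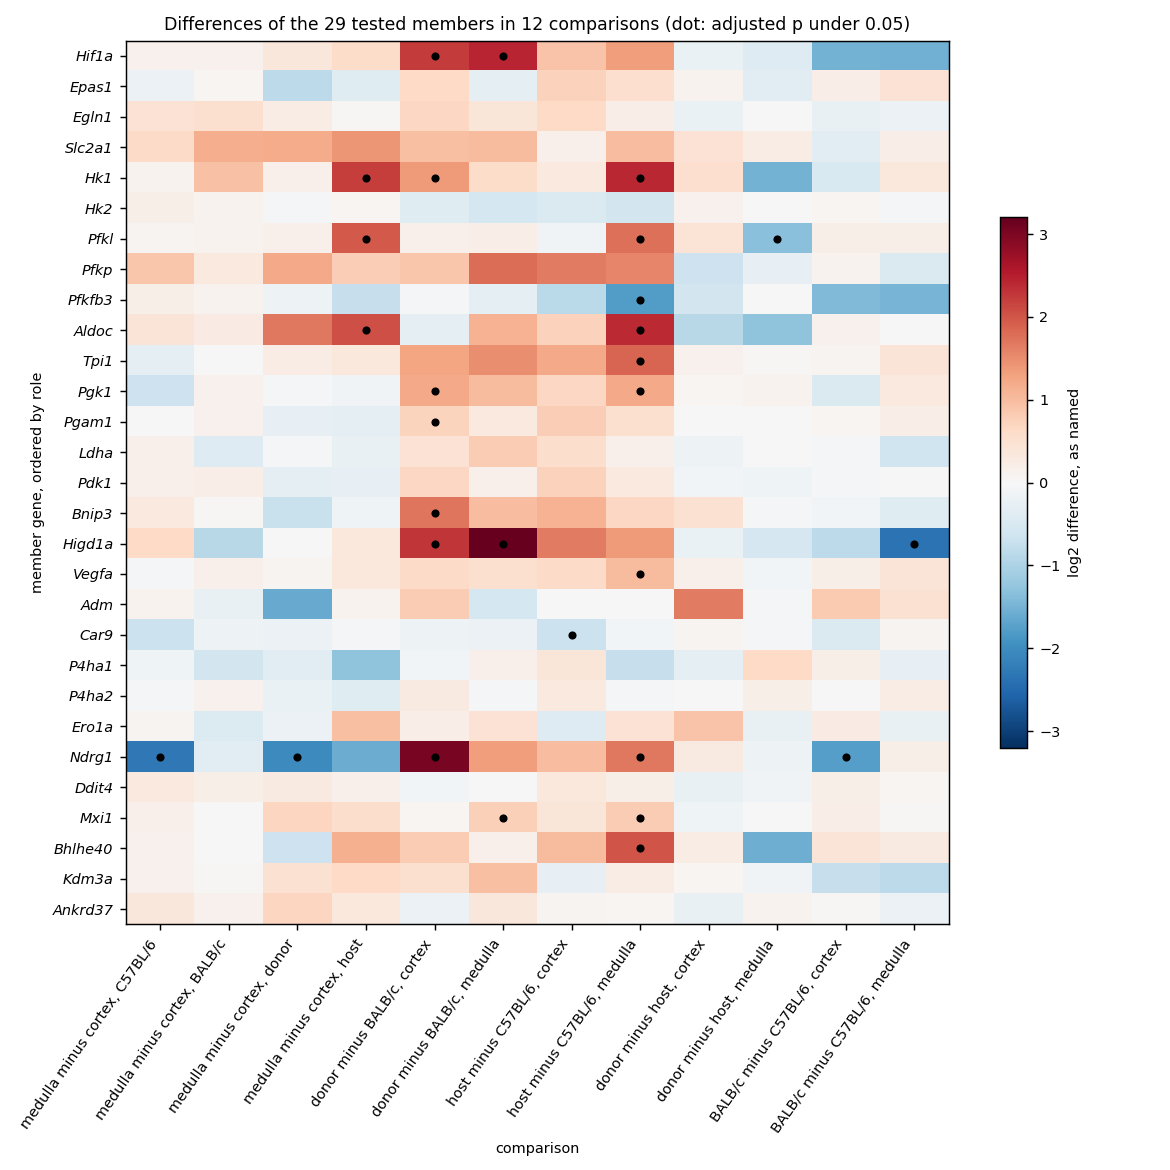
Log2 differences of the 29 tested members (rows, ordered by role) in 12 comparisons of groups (columns); red is higher and blue lower in the group named first, and dots mark an adjusted p under 0.05. The most dots are in donor minus BALB/c cortex (7), where 24.0% of all genes tested passed, and in host minus C57BL/6 medulla (10), where 11.5% did.

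Between donor and host cells of the same grafts 1 member passed, in the medulla. In cortex 0 of 29 members passed by limma, against 0.495% of all genes tested, and 3 had an unadjusted p under 0.05, with medians of 0.05 for the members and -0.02 for all genes. The share of all genes at the unadjusted threshold was not counted there. In medulla 1 of 29 passed, against 0.592% of all genes, with a median of -0.07 for the members. This was Pfkl, at 7.85, 8.35 and 7.88 in donor medulla and 9.34, 9.53 and 9.23 in host medulla, without overlap. It was lower in donor cells by 1.34 ± 0.21 (adjusted p = 0.00112). With the mouse as a fixed block the adjusted p was 0.413, in a range of 0.000468 to 0.413 over all alternatives, and fitting only these groups also ended the call. Hk1, at 8.26, 9.63 and 8.56 in donor medulla, and Aldoc, at 9.25, 10.72 and 9.24, differed from host medulla by -1.50 ± 0.40 and -1.29 ± 0.47 and did not pass. The donor minus host comparisons and those with homeostasis share the graft arrays.

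Between the homeostatic strains 1 member passed in each region. In cortex, against a background of 9.91%, it was Ndrg1, which was lower in BALB/c than in C57BL/6 by 1.76 ± 0.45 (adjusted p = 0.0174), with groups that overlapped at 9.21 and 9.23. The call was lost after a second quantile normalization (adjusted p = 0.0619), with only these groups fitted (0.0858, the highest of a range that starts at 0.00924), and without C57BL/6 cortex replicates 1 or 4 or BALB/c cortex replicate 4. The proximal tubule list was at 8.04 and 9.03 in these groups. In medulla, against a background of 9.11%, it was Higd1a, which was lower in BALB/c by 2.37 ± 0.68 (adjusted p = 0.0368), with overlapping groups: C57BL/6 medulla stood at 9.60, 11.50, 9.73 and 10.10, and 1 of the 4 BALB/c arrays reached 10.15. The call was lost when the gene's probesets were averaged, with a difference of -0.99 (adjusted p = 0.127, in a range of 0.00729 to 0.132). It was lost too on leaving out any C57BL/6 medulla array or BALB/c medulla replicate 1 or 4, after a second quantile normalization, with array weights and with only these groups fitted. Hif1a differed by -1.52 ± 0.59 and -1.53 ± 0.59 between BALB/c and C57BL/6 in cortex and medulla and did not pass.

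The members that passed in no comparison were 14 of the 29 tested. They were Epas1; the oxygen-sensing prolyl hydroxylase Egln1, at group means of 8.40 to 9.32; Slc2a1 and Hk2; Pfkp, Ldha and Pdk1; Adm; the collagen prolyl hydroxylase subunits P4ha1 (8.11 to 9.39) and P4ha2 (7.06 to 7.47); Ero1a, an oxidase of protein folding (7.58 to 8.55); Ddit4, an inhibitor of mTOR signalling (8.22 to 8.73); the histone demethylase Kdm3a (8.21 to 9.33); and Ankrd37 (7.63 to 8.31). Egln3, a prolyl hydroxylase that HIF itself induces, was above the 40th percentile on 2 of 28 arrays, with group means of 6.95 to 7.41.

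In 4 members the brightest of several probesets was used, and which copy of a gene or processed pseudogene each probeset covers is not given in the sources used here. For Pgk1 1 of the 2 other probesets was identical to the one used and 1 differed by at most 0.27 on any array. For Pgam1 1 of the 2 others was identical and 1 differed by up to 1.41. The other probeset of Bnip3 rose by 2.62 in donor cortex, where the one used rose by 1.72. It was higher in cortex than in medulla, by 2.18 in donor and 1.87 in host cells by means, where the probeset used differed by -0.70 and -0.14 from cortex to medulla. The other probeset of Higd1a was at 9.11 and 9.18 in BALB/c cortex and medulla and at 9.92 and 9.74 in donor cells, so its differences were 0.81 and 0.56 where the probeset used gave 2.29 and 3.19. With all probesets averaged, the donor rises of Higd1a were 1.55 in cortex (adjusted p = 0.0213) and 1.87 in medulla (adjusted p = 0.0344), and that of Bnip3 was 2.17 (adjusted p = 0.00166). For Pgam1 the probeset that differed rose by 1.54 in donor cortex, and the average of all by 0.99. Values of Higd1a, Bnip3 and Pgam1 are therefore uncertain in size.

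**Figure D5:**
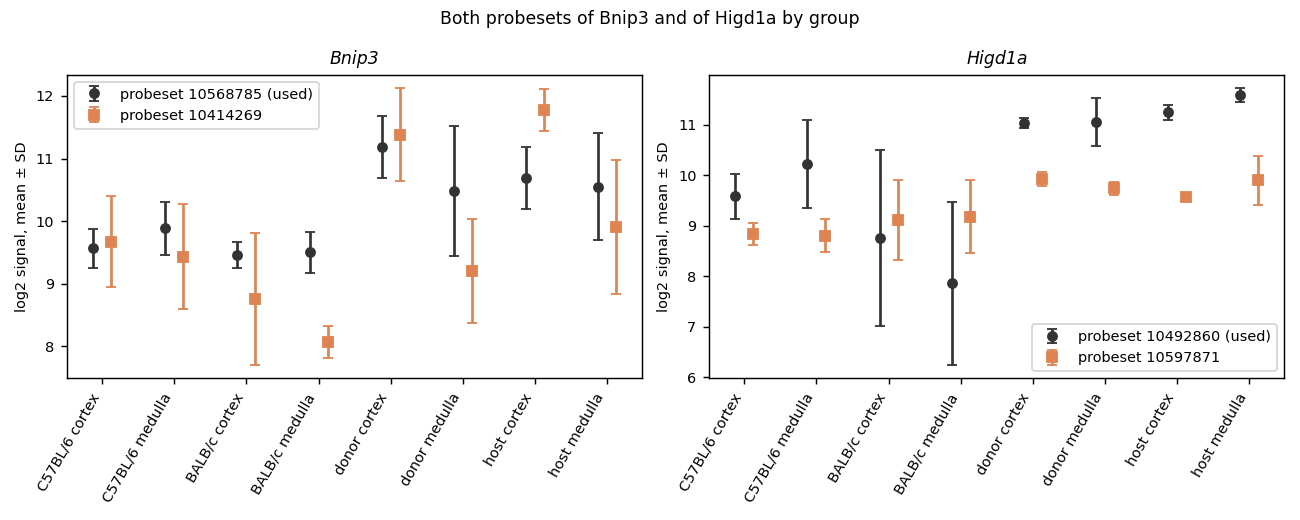
Log2 signal (mean ± SD, 4 homeostatic or 3 graft arrays a group) of both probesets of Bnip3 and of Higd1a; circles are the probesets used. The probesets of Higd1a part in BALB/c medulla, at 7.86 and 9.18.

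Other genes of the same pathways were counted by 4 further lists: other glycolysis genes (15 tested), other hypoxia-inducible genes (26), oxygen sensing and HIF partners (14) and gluconeogenesis (6). Between medulla and cortex of homeostatic cells 1 gene of these lists passed, the gluconeogenesis gene Fbp1, which was lower in the medulla of C57BL/6 cells by 2.99 ± 0.58. In donor medulla against donor cortex 1 other glycolysis gene and 2 other hypoxia-inducible genes fell; in host cells 1 other glycolysis gene fell, and of the other hypoxia-inducible genes 2 rose and 2 fell. The shares of the 2 lists were 6.67% and 7.69% in donor cells, where 2.54% of all genes passed, and 6.67% and 15.4% in host cells, where 4.29% did. In host medulla against C57BL/6 medulla, 3 other glycolysis genes rose and 0 fell, with a median of 0.30, and 7 other hypoxia-inducible genes rose and 1 fell, with a median of 0.62, where the median of all genes was 0.07. Among them were Ldhb, lactate dehydrogenase B, at 12.91 against 9.66 (3.25 ± 0.64, adjusted p = 0.00108), and Pdk2, a pyruvate dehydrogenase kinase, at 10.44 against 8.12 (2.32 ± 0.43, adjusted p = 0.000638). Plod2, a collagen lysyl hydroxylase, was higher by 2.95 ± 0.68 (adjusted p = 0.00434), and the metallothionein Mt1 by 1.68 ± 0.38 (adjusted p = 0.00362). Of the HIF partners 1 of 14 rose there. The shares that passed were 20% of the other glycolysis genes, 30.8% of the other hypoxia-inducible genes and 7.14% of the HIF partners, the last below the 11.5% of all genes tested.

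In donor cortex against BALB/c cortex 2 other glycolysis genes rose and 1 fell, 4 other hypoxia-inducible genes rose and 1 fell, and 1 HIF partner rose and 2 fell. These shares of 20%, 19.2% and 21.4% lie below the 24.0% of all genes tested that passed there. Car12, a carbonic anhydrase of epithelia, was higher by 3.46 ± 0.55 (adjusted p = 0.000299). Gluconeogenesis genes, of which Pck1 and Fbp1 are also in the proximal tubule list, followed the cortex: 4 of 6 were lower in the medulla in donor cells and 4 of 6 in host cells, with medians of -2.70 and -2.04, and 4 of 6 were higher in donor cortex than in BALB/c cortex, with a median of 2.49.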

How the data were processed

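Dendritic cell RNA was amplified and hybridised to 28 Affymetrix arrays. The deposited log2 values were produced by the authors with RMA in oligo, per the submitters' processing notes; RMA subtracts background, equalises array distributions and summarises probes. Tool versions were not given in the sources used here. Of 22549 probesets, 20646 with 1 gene symbol were kept, and the probeset brightest over all arrays stood for its gene. Genes above the 40th percentile of their array in at least 3 arrays were tested, 14346 of 19272.

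limma 3.58.1 in R 4.3.3 fitted a mean for every group, with 20 residual degrees of freedom over the 28 arrays. There were 15 comparisons, 3 of them differences of regional differences; p-values are 2-sided and adjusted by Benjamini and Hochberg over all genes tested. The fit was tested on simulated data with independent arrays, which does not cover arrays that share a mouse. Precision is limited by the number of arrays.

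The labels' mouse numbers pair cortex with medulla and donor with host cells. As a check, residuals of same-mouse arrays correlated at 0.155 (donor regions), 0.106 (host regions), 0.22 and 0.171 (donor and host, cortex and medulla), but at -0.003 in C57BL/6 and -0.006 in BALB/c; the mouse was a block only in alternatives.

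The members and lists were chosen with earlier results of these data known. Members that passed are given with their values on every array, others by group means; of the other pathway genes up to 4 with small adjusted p could be named, and up to 3 defining markers a list. Alternatives were the mouse as random or as fixed block, dropping or tightening the filter on dim genes, a second quantile normalization, only the compared groups fitted, array weights, the mean of a gene's probesets, and each array left out in turn. Promoter windows came from RefSeq.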

Additional observations from a re-analysis of the deposited data

Results flagged for a closer look

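In homeostatic groups of 4 arrays, 7 of 120 tests of a member in a group found an array far from the other 3, where chance gives about 1 in 20. Hif1a was at 9.52 in C57BL/6 cortex replicate 1, where the others were at 10.38 to 10.48, and Ankrd37 at 7.27 in the same array, where the others lay between 7.87 and 7.99. Ndrg1 was at 7.83 in C57BL/6 medulla replicate 2, below the others at 8.17 to 8.21. Mxi1 was at 8.05 in C57BL/6 cortex replicate 3 and at 8.84 in C57BL/6 medulla replicate 4, the latter above 8.28, the next highest. Vegfa was at 8.75 in BALB/c cortex replicate 4, above the others at 8.45 to 8.49. P4ha2 was at 7.03 in BALB/c cortex replicate 1, below the others at 7.20 to 7.23.

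The medulla-cortex difference of Pfkl was larger in host than in C57BL/6 cells by 1.86, as tested by the difference of the differences.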

How the results depend on the processing

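Of 30 calls of a member in a comparison, 0 reversed under any alternative; 12 were kept under all settings, 12 without any single array and 8 under both. Mouse as a random replicate block lost 0 of the 30 but gave 3 donor regional members for 1 and 2 for the regional difference of host minus C57BL/6 cells. As a fixed replicate block it left 0 regional members in C57BL/6, donor and host cells and 0 between donor and host medulla, with fewer degrees of freedom. It could not be used where groups share no mice.

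For the regional comparisons, the second quantile normalization gave 0 in C57BL/6 and 2 in donor cells, groups fitted alone 0 in both and 2 for host minus C57BL/6 regional differences, and array weights 4 in donor cells and 3 for that contrast. For donor minus BALB/c, the count was 4 (quantile, cortex) and 0 (medulla, groups alone or weights). The calls among all genes moved too: in that cortex comparison 3449 passed in the main fit. After the second quantile normalization 786 were higher and 1636 lower. Shares of all genes are not given with the other counts here, so they are not read as changes of the members alone. For host minus C57BL/6 cortex the count was 0 (strict filter, quantile), 2 (groups alone, mean of probesets) or 4 (weights), and for donor minus host medulla 0 (groups alone) or 3 (weights). For BALB/c minus C57BL/6 it was 2 (no filter, groups alone) or 3 (weights) in cortex, and 3 (no filter) or 0 (quantile, groups alone, weights, mean of probesets) in medulla. The causes were not tested.

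Without single arrays the counts ran from 0 to 2 (C57BL/6 regions; regional difference from 1 to 2 for host minus C57BL/6), 0 to 1 (donor regions), 2 to 4 (host regions), 4 to 8 and 0 to 6 (donor minus BALB/c, cortex and medulla), 0 to 1 and 7 to 9 (host minus C57BL/6), 0 to 1 and 1 to 2 (donor minus host), and 0 to 2 and 0 to 3 (BALB/c minus C57BL/6). Shares of all genes without these arrays are not given, so the ranges are not read as changes of the members alone. Dim members, such as Car9, Hk2, P4ha2 and Egln3, can be judged least.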
